A study of Mus musculus with 26 samples.

Results

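Mouse embryonic stem cells (mESCs) that had lost the corepressor Mtgr1 were compared with the same clones after a tagged Mtgr1 had been put back. The comparison took in 6 of the 15 RNA-seq libraries of the series, chosen by their labels: 3 from Mtgr1−/− clones (named A3, C1 and C3) and 3 from the lines in which each of these clones was rescued with FH-Mtgr1. All 6 libraries came from the Stella:GFP mESC line, which was maintained in 2i+LIF and had spent 5 days without feeder cells in serum+LIF before RNA was taken. Mtgr1 had been disrupted with CRISPR/Cas9 by a guide to exon 3 of Cbfa2t2, the gene that encodes it, and each clone grew from 1 cell, so that a clone also carries whatever else is particular to that cell. FH-Mtgr1 is a FLAG-HA-tagged Mtgr1 cDNA, and the promoter that drives it is not given in the sources used here. A library of the parental wild-type (wt) line in serum+LIF served as a reference without a replicate. The comparison of Prdm14−/− clones (G6 and F10, 2 libraries) with their FH-Prdm14 rescue lines (2 libraries) served to show where the response to Mtgr1 differed.

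Mtgr1 belongs to the ETO family of corepressors. These proteins do not read a DNA sequence on their own but are recruited by transcription factors and in turn bring in NCoR/SMRT complexes and histone deacetylases, which silence the genes nearby. In mESCs Mtgr1 binds Prdm14, a DNA-binding protein of the PRDM family that holds back FGF signalling and the genes of the epiblast after implantation, and that primordial germ cells need. Knockout against rescue asks which transcripts change when Mtgr1 is the component that is missing, within 1 genetic background per clone.

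Levels are given in RPKM, which scales reads to gene length and library depth, in the order of clones A3, C1 and C3. A difference is knockout minus rescue on the log2(RPKM + 0.5) scale, given with its standard error (SE), and the pseudocount of 0.5 makes the difference of genes with low values smaller. The test was limma over 12549 of 24015 genes, those that reached 1 RPKM in 2 or more of the 6 libraries. A gene is called at a Benjamini-Hochberg adjusted p under 0.05. The libraries held 11329857 to 21218414 reads on genes. Clone C3 stood apart from the others: the SD of the log2 difference between libraries was 0.229 between the A3 and C1 knockouts and 0.271 between their rescue lines, but 0.412 to 0.516 in the pairs that held a C3 library. The 8 stem cell markers were present in all libraries and summed to 1366 to 1680 RPKM in the knockout and 1697 to 1869 RPKM in the rescue lines. Of 12 fibroblast markers 6 reached 1 RPKM (sums of 15.7 to 33.0 in the knockout and 33.6 to 39.3 in the rescue lines, with Fap at 0), and of 12 blood markers 3 did (sums of 13.5 to 19.3 and 14.9 to 16.6, with Hba-a1 and Hbb-b1 at 0). The part of such cells in the results was not tested. In bulk RNA, fewer cells of a type and less RNA per cell cannot be told apart.

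Cbfa2t2 (chromosome 2, 154262217 to 154365092, plus strand, in NCBIM37, the assembly also called mm9, by GENCODE vM1) was at 19.9, 18.6 and 18.0 RPKM in the knockout and at 28.0, 26.7 and 25.5 RPKM in the rescue lines. All knockout libraries lay below all rescue libraries, and the wt library, at 40.7 RPKM, lay above both. The difference was -0.49 (SE 0.12, adjusted p = 0.00729), with adjusted p from 0.00136 to 0.123 over the alternatives. Since the study describes an aberrant transcript in every clone and the rescue cDNA adds reads to the same gene, this RNA level does not measure loss of the protein. The other ETO genes stayed under the filter. Runx1t1, which encodes Mtg8, was at 0.531, 0.373 and 0.553 RPKM in the knockout and at 0.0960, 0.102 and 0.0757 RPKM in the rescue lines. Cbfa2t3, which encodes Mtg16, was at 0.310, 0.306 and 0.288 RPKM in the knockout and at 0.464, 0.550 and 0.296 RPKM in the rescue lines. Prdm14 was at 3.63, 3.88 and 1.43 RPKM in the knockout and at 2.52, 2.22 and 2.03 RPKM in the rescue lines, so that the groups overlapped through clone C3. Its difference was 0.25 (SE 0.30, adjusted p = 0.509), and 0.57 (adjusted p = 0.00429) without that clone. Of the 26 tested ETO partners and corepressor subunits, 11 were higher and 2, Cbfa2t2 itself and Tbl1xr1, were lower in the knockout, none by 2-fold. Over all genes tested 27.5% were higher and 25.9% lower, and the 13 called members are a share near the 53.4% of all genes that were called. Gps2, a subunit of the NCoR/SMRT complex, was at 17.3, 19.14 and 19.6 RPKM in the knockout against 9.63, 10.6 and 10.4 RPKM in the rescue lines (difference 0.84, SE 0.12, adjusted p = 0.000779).

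Many of the genes measured differed between the knockout and the rescue lines. In all, 6707 genes (53.4% of those tested) were called, 3453 higher (27.5%) and 3254 lower (25.9%) in the knockout. At least 2-fold differences were called for 2625 genes (20.9%), 1296 higher (10.3%) and 1329 lower (10.6%). The libraries of the groups did not overlap for 7922 genes (63.1%) and for 2606 of the 2625 genes with 2-fold calls. Without clone C3, 8338 genes (66.4%) were called, 4212 higher and 4126 lower. Of these, 6568 were also called with all clones, and none had changed sign. Of the genes with 2-fold calls, 2606 were also called without clone C3 and 2613 moved in the same direction in each of the 3 clones. By contrast, 4280 genes were called without clone A3 and 4217 without clone C1. Without clone C3 the members called lower went from 3 to 6 for general pluripotency, Nodal and BMP, and parietal endoderm, from 2 to 4 for formative epiblast and for collagens and integrins, from 3 to 7 for junctions, from 3 to 5 for FGF, from 4 to 7 for Wnt and from 1 to 5 for LIF, and those called higher from 6 to 10 for Polycomb and from 2 to 5 for the respiratory chain. Because so many genes were called, the counts of list members are to be read against these shares. The calls that lists gained without clone C3 are likewise to be read against the rise over all genes.

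**Figure D1:**
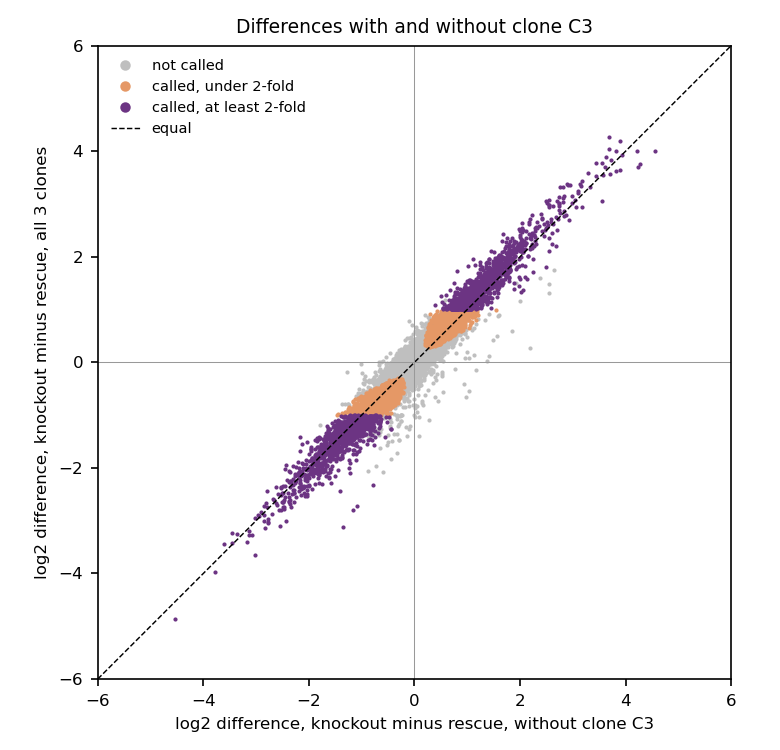
Difference between knockout and rescue lines with all 3 clones (vertical axis) against the difference without clone C3 (horizontal axis), both on the log2(RPKM + 0.5) scale, for the 12549 genes tested, 1 point per gene. Purple points are the 2625 genes called at least 2-fold and lie along the dashed line of equal values, orange points are genes called with a smaller difference, and grey points were not called.

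The 10 largest increases included Acta1, Vgf, Dsp, Krt8, Sfmbt2, Plac1, Anxa3, Krt7 and Krt19. Acta1, the actin of skeletal muscle (chromosome 8, 126415669 to 126418651, minus strand, NCBIM37), was at 36.0, 36.1 and 62.7 RPKM in the knockout and at 1.94, 2.82 and 0.950 RPKM in the rescue lines. Its difference of 4.27 (SE 0.32, adjusted p = 5.84e-05) was the largest among the genes with a mean of at least 5 RPKM, and was 3.68 without clone C3. Sfmbt2, a Polycomb-related gene needed in trophoblast and imprinted in the mouse, went from 0.984, 1.11 and 2.30 RPKM in the rescue lines to 29.3, 27.5 and 32.3 RPKM in the knockout (difference 3.998, SE 0.24). Anxa3, an annexin, was at 46.1, 40.2 and 67.0 RPKM against 2.27, 2.42 and 4.03 RPKM. In each of these genes every knockout library lay above every rescue library.

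The largest decreases were led by Ndufa4l2, a hypoxia-induced protein of the mitochondria (chromosome 10, 126951995 to 126954208, plus strand, NCBIM37), at 1.51, 1.96 and 0.826 RPKM in the knockout and at 58.0, 44.4 and 60.4 RPKM in the rescue lines. The difference was -4.86 (SE 0.24, adjusted p = 2.77e-05). Trim63, a ubiquitin ligase of muscle, was at 1.36, 1.61 and 1.08 RPKM against 28.6, 24.7 and 32.2 RPKM (difference -3.97, SE 0.17). Aire, known as the regulator of self-antigens in the thymus, was at 1.00, 1.39 and 1.92 RPKM against 18.8, 17.1 and 24.4 RPKM (difference -3.42, SE 0.21). Bhlhe41, a repressor of the circadian clock, was at 0.475, 0.551 and 0.692 RPKM against 8.11, 8.60 and 13.3 RPKM (difference -3.26, SE 0.21). The other genes among the 10 largest decreases were Rpl39l, a ribosomal protein gene of the male germline, Syce3 and Sycp3, proteins of the synaptonemal complex, Rlbp1, a retinoid-binding protein, and Zc3h6 and 2410076I21Rik. None of the genes named here overlapped between the groups.

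**Figure D2:**
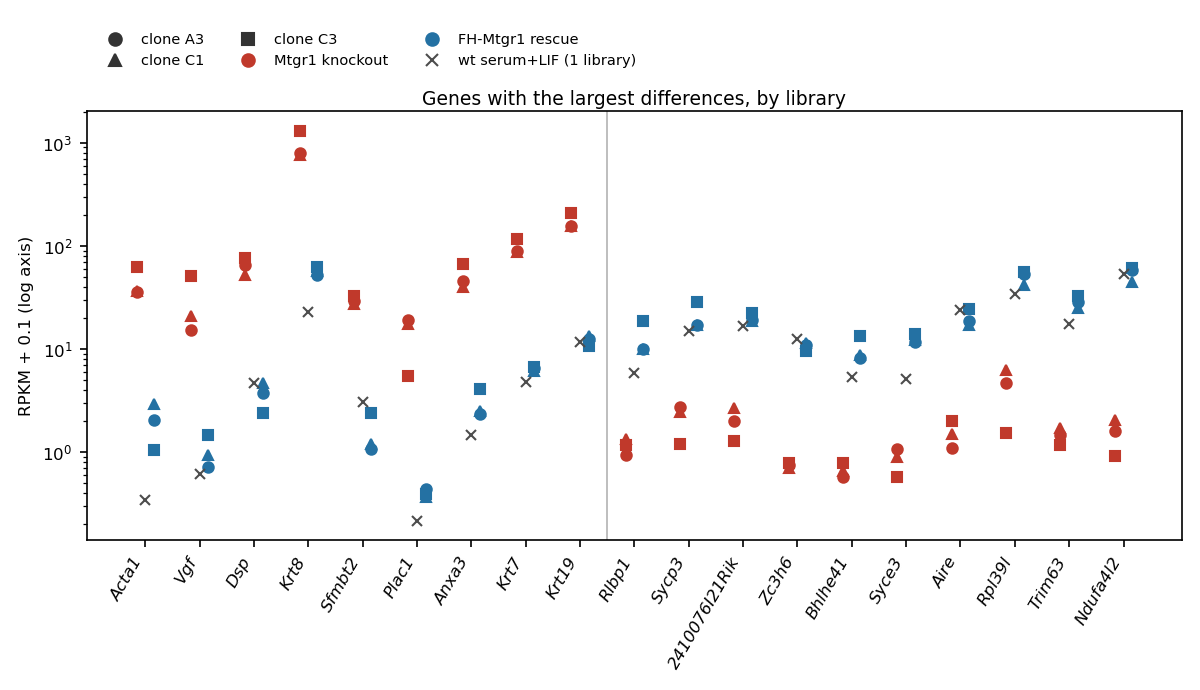
RPKM + 0.1 (log axis) of genes among the 10 with the largest increase (left of the line) and of the 10 with the largest decrease in the knockout, by library. Red symbols are Mtgr1−/− clones, blue symbols their FH-Mtgr1 rescue lines, symbol shapes mark the clone, and crosses the wt serum+LIF library. Red and blue symbols do not overlap in any gene, and the wt cross lies nearer to the blue than to the red symbols in each.

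Genes of the post-implantation epiblast, which mESCs switch on when they leave the naive state, were mostly higher. Of 25 tested members of this list 16 were higher, 12 of them at least 2-fold, and 2 were lower, with a median difference of 0.97 against 0.01 over all genes. Fgf5, the classical marker of this stage, was at 7.45, 5.68 and 5.71 RPKM in the knockout and at 0.782, 1.15 and 0.973 RPKM in the rescue lines. Pim2, a growth-promoting kinase, showed the largest increase of the list, from 29.7, 23.3 and 18.1 RPKM to 133, 134 and 146 RPKM (difference 2.54, SE 0.18). N-cadherin (Cdh2) went from 0.655, 0.599 and 0.287 RPKM to 4.54, 4.23 and 6.95 RPKM (difference 2.49, SE 0.23). The transcription factor Pou3f1 (Oct6) was at 70.4, 78.7 and 186 RPKM in the knockout against 21.1, 21.3 and 20.2 RPKM, with clone C3 well above the other knockout clones. The 2 members that were lower went against the list. Otx2, the transcription factor that drives the transition to the epiblast-like state, was at 29.6, 27.7 and 19.02 RPKM in the knockout against 64.4, 71.0 and 64.2 RPKM (difference -1.39, SE 0.17, adjusted p = 0.000387). Igfbp2, a binding protein of insulin-like growth factors, was at 128, 142 and 224 RPKM against 581, 540 and 616 RPKM (difference -1.85, SE 0.20). Wnt8a did not pass the test (2.30, 1.82 and 3.37 RPKM against 1.10, 1.46 and 2.74 RPKM, adjusted p = 0.239), but did without clone C3 (adjusted p = 0.0224).

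Naive pluripotency genes moved in both directions. Of 22 tested, 8 were lower and 5 higher, and of these 5 were lower and 1 was higher by at least 2-fold. The list summed to 768 to 1108 RPKM in the knockout and to 1730 to 2427 RPKM in the rescue lines, much of it from Dppa5a. Tbx3 was at 3.34, 3.38 and 4.01 RPKM in the knockout against 15.2, 17.0 and 31.2 RPKM (difference -2.34, SE 0.25). Tcl1, a coactivator of Akt, and Dppa5a, an RNA-binding protein of pluripotent cells, were lower by -1.71 (SE 0.19) and -1.79 (SE 0.23). Dppa5a was at 419, 494 and 295 RPKM against 1189, 1165 and 1830 RPKM. Klf5, a factor of naive cells and of trophectoderm, lay on the other side, at 88.2, 106 and 111 RPKM against 44.3, 42.5 and 57.4 RPKM (difference 1.08, SE 0.15). Among the core factors, Nanog was at 30.7, 31.4 and 25.1 RPKM in the knockout against 57.9, 52.4 and 45.1 RPKM (difference -0.82, SE 0.14, adjusted p = 0.00194). Pou5f1 (Oct4) was at 512, 552 and 540 RPKM against 603, 631 and 647 RPKM (difference -0.23, SE 0.11, adjusted p = 0.101). The increases and decreases within this list leave its median at -0.19.

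**Figure D3:**
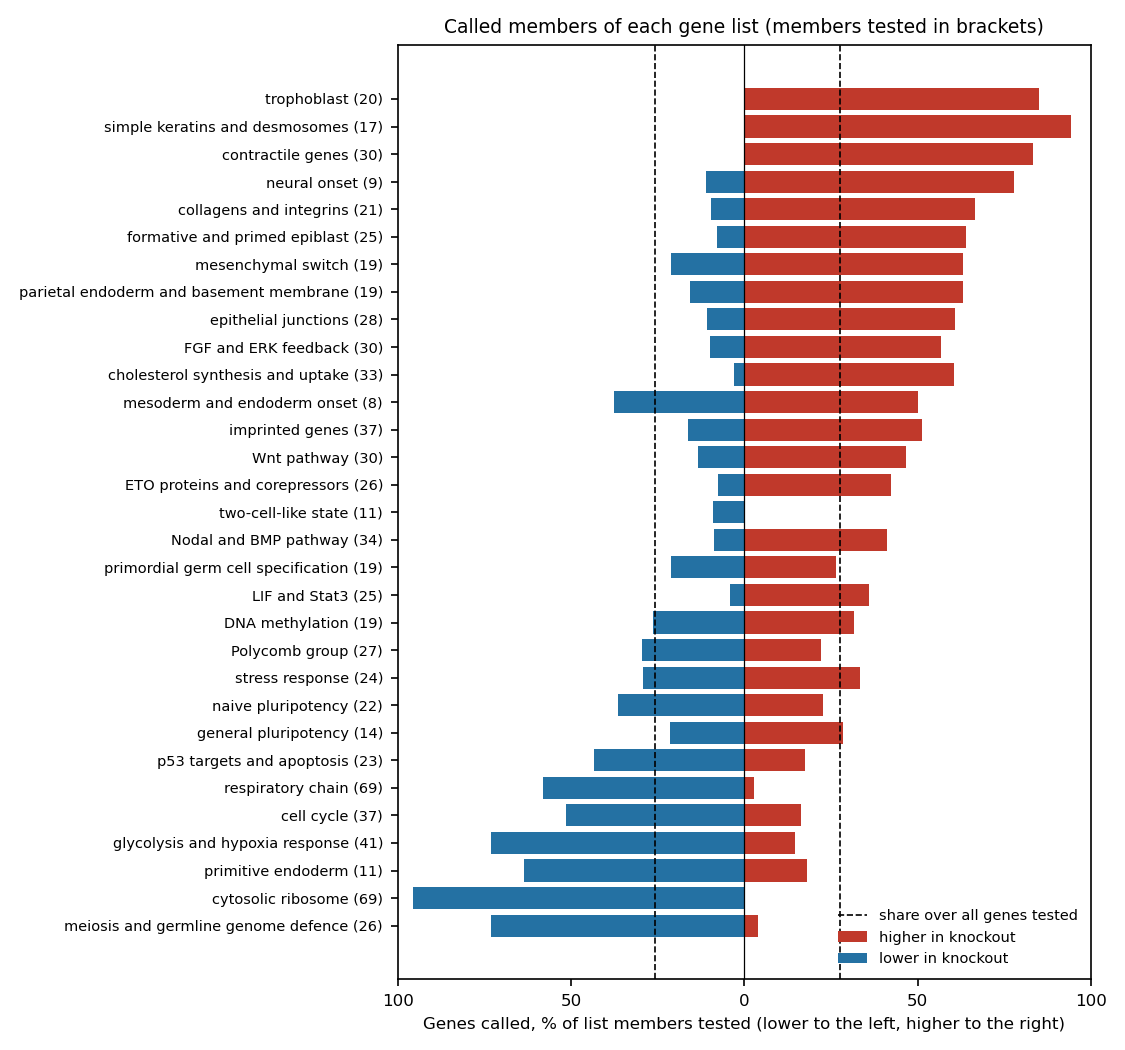
Share of the tested members of each gene list that were called higher (red, to the right) or lower (blue, to the left) in the knockout, in % of the members tested, whose number stands in brackets, for lists with at least 8 members tested. Dashed lines mark the share of all 12549 genes that were called higher (27.5%) or lower (25.9%), and lists are ordered by their median difference, from trophoblast at the top to meiosis at the bottom.

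Trophoblast genes, those of the placental lineage that mESCs normally do not enter, had the highest median of the lists with at least 8 members, 1.66 (1.65 without clone C3). Of 20 tested members 17 were higher, 13 at least 2-fold, and none was lower. Hand1, a transcription factor of trophoblast giant cells (chromosome 11, 57642207 to 57646320, minus strand, NCBIM37), was at 33.7, 34.7 and 36.1 RPKM in the knockout and at 1.87, 2.06 and 3.31 RPKM in the rescue lines (difference 3.63, SE 0.19, adjusted p = 2.86e-05). Plac1, a placental membrane protein, was at 19.03, 17.5 and 5.36 RPKM against 0.339, 0.264 and 0.294 RPKM (difference 3.995, SE 0.41), with clone C3 the lowest of the knockout clones. The homeobox genes Rhox6 and Rhox9, which lie side by side in the X-linked Rhox cluster, were at 66.5, 75.3 and 44.2 RPKM and at 41.2, 49.5 and 30.1 RPKM in the knockout. In the rescue lines they were at 2.26, 4.74 and 6.63 RPKM and at 2.55, 4.43 and 6.77 RPKM. Gata2, Gata3, Tfap2c, Tead4 and Ets2, transcription factors of early trophoblast, were among the members called higher. Cdx2 and Elf5, which are needed in trophoblast stem cells, stayed under the filter, at no more than 1.19 and 0.497 RPKM in any of the 6 libraries, and Eomes was at 3.35, 2.68 and 2.04 RPKM against 2.54, 2.60 and 2.28 RPKM (adjusted p = 0.728). The list shares Krt7, Krt8 and Krt18 with the keratins and H19, Peg10 and Ascl2 with the imprinted genes.

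Primitive endoderm genes moved the other way. Of 11 tested members 7 were lower and 2 higher, with a median of -0.89. Gata4, a factor that specifies this lineage, was at 0.686, 1.22 and 1.51 RPKM in the knockout against 4.02, 5.61 and 5.21 RPKM (difference -1.75, SE 0.23). Gata6, its partner, was at 0.364, 0.589 and 1.13 RPKM against 1.88, 3.20 and 4.28 RPKM (difference -1.59, SE 0.31), and Hnf4a of the visceral endoderm was at 0.0667, 0.114 and 0 RPKM against 1.28, 1.52 and 0.793 RPKM (difference -1.58, SE 0.22). All are low in both groups. The 2 members that were higher were Lrp2 and Cited1. Lrp2 (megalin), the endocytic receptor of visceral endoderm, was at 24.2, 20.9 and 33.8 RPKM against 4.37, 5.37 and 5.196 RPKM (difference 2.27, SE 0.19). Cited1, a transcriptional coregulator, was at 5.33, 5.10 and 9.47 RPKM against 1.96, 1.99 and 3.05 RPKM (difference 1.30, SE 0.26). On the scale of the list plot, the wt library lay at -0.34 for this list, within the range of the knockout (-0.69 to -0.11) and below the rescue lines (0.23 to 0.52). Of 19 members of the parietal endoderm and basement membrane list 12 were higher and 3 lower, with a median of 0.80 that fell to 0.42 without clone C3. Perlecan (Hspg2) shows this pattern, at 77.8, 74.5 and 178 RPKM against 28.4, 31.0 and 25.9 RPKM. Sparc, a matrix protein of parietal endoderm, was at 133, 138 and 172 RPKM against 75.5, 85.3 and 92.0 RPKM (difference 0.80, SE 0.14).

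Keratins and desmosomal proteins, which link epithelial cells through intermediate filaments, were higher almost without exception. Of 17 tested members 16 were higher, 11 at least 2-fold, and none was lower (median 1.46, and 1.22 without clone C3). Krt8 (chromosome 15, 101827142 to 101834773, minus strand, NCBIM37) was at 792, 757 and 1303 RPKM in the knockout and at 52.2, 57.0 and 62.0 RPKM in the rescue lines (difference 4.004, SE 0.21, adjusted p = 2.86e-05). Krt7 went from 6.45, 6.06 and 6.64 RPKM in the rescue lines to 89.2, 88.1 and 116 RPKM. Krt19 went from 12.4, 13.4 and 10.6 RPKM to 157, 155 and 210 RPKM. These keratins form the filaments of simple epithelia and of trophectoderm. Dsp, the desmoplakin that anchors the filaments in desmosomes, was at 65.7, 52.5 and 76.2 RPKM against 3.67, 4.64 and 2.28 RPKM (difference 4.05, SE 0.24). Perp, a desmosomal membrane protein and p53 target, was at 58.9, 50.5 and 80.2 RPKM against 13.4, 13.8 and 12.7 RPKM (difference 2.18, SE 0.17). Evpl, the only member not called, was at 3.56, 3.69 and 5.01 RPKM against 4.40, 4.36 and 3.83 RPKM.

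Adherens and tight junction genes were mostly higher, with 17 of 28 higher, 4 of them at least 2-fold, and 3 lower. Marveld2 (tricellulin), a membrane protein of junctions where cells meet, and Tjp1 (ZO-1) and Cgn (cingulin), scaffold proteins of tight junctions, were higher by 1.61 (SE 0.23), 1.38 (SE 0.20) and 1.30 (SE 0.18). Tjp1 was at 57.8, 48.7 and 54.4 RPKM in the knockout against 23.2, 24.8 and 14.3 RPKM. Epcam, the epithelial adhesion molecule of mESCs, was lower, at 119, 118 and 142 RPKM against 236, 225 and 217 RPKM (difference -0.84, SE 0.12). Tjp3 was at 9.56, 9.40 and 14.7 RPKM against 24.0, 24.7 and 24.6 RPKM (difference -1.12, SE 0.18). Of 19 genes of the mesenchymal switch 12 were higher and 4 lower. Mmp14, a membrane-bound matrix protease, was at 29.4, 27.1 and 41.3 RPKM against 6.20, 6.59 and 3.51 RPKM (difference 2.50, SE 0.25). The growth factor Tgfb2 was at 2.17, 1.59 and 4.54 RPKM against 0.107, 0.0798 and 0.0333 RPKM (difference 2.41, SE 0.31). The transcription factors Twist1 and Foxc2 went against the list, Twist1 at 1.49, 1.49 and 3.41 RPKM against 8.98, 7.32 and 11.1 RPKM, and Foxc2 at 0, 0.0812 and 0.0972 RPKM against 1.78, 1.18 and 2.51 RPKM. Collagens and integrins were higher for 14 of 21 members and lower for 2. Col5a1 was at 12.1, 10.5 and 20.3 RPKM against 1.61, 1.58 and 0.654 RPKM, and Itga3 at 63.2, 62.7 and 150 RPKM against 12.2, 15.4 and 11.3 RPKM, with clone C3 the highest in both. Of 7 tested genes of the fibroblast and feeder cell list 2 were higher and 5 lower, among them Thy1, a surface marker of fibroblasts, at 5.67, 6.73 and 5.90 RPKM against 24.6, 20.4 and 19.8 RPKM (difference -1.74, SE 0.14). Of 3 tested blood genes 1 was higher and 2 were lower.

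The contractile list holds mainly actins, tropomyosins and actin-binding proteins, many of them known targets of serum response factor (SRF). It also holds Thbs1, Ctgf, Cyr61, Ankrd1, Lmna, Srf itself, Mkl1 and Mkl2. Contractile genes were higher for 25 of 30 tested members and lower for none. Of these, 19 were higher at least 2-fold, and the median was 1.29 (1.08 without clone C3). Tagln (SM22-alpha), an actin-bundling protein, was at 135, 139 and 215 RPKM in the knockout and at 15.7, 19.3 and 11.2 RPKM in the rescue lines (difference 3.36, SE 0.24, adjusted p = 4.45e-05). Thbs1, a secreted matrix protein, was at 26.4, 23.3 and 52.3 RPKM against 3.27, 4.44 and 3.47 RPKM (difference 2.94, SE 0.28). Clone C3 was the highest knockout library for both and for Acta1. Cnn3, the member with the highest level that was not called, was at 169, 160 and 203 RPKM against 146, 141 and 165 RPKM (adjusted p = 0.175).

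SRF binds the CArG box, so promoter windows of 250 bases before to 50 bases after the gene start (RefSeq, GRCm38.p6) were searched for it. Windows were found by symbol or synonym for 27 of the 30 contractile genes, and 5 of their 34 windows (14.7%) held a CArG box, against 1.26% of the 12650 windows of the 9930 tested genes that matched and 1.63% of all 32851 windows. The 1296 genes called higher at least 2-fold did not stand out, with 1.43% of windows. The 5 windows belong to Acta1, Cnn2, Vcl, Myl9 and Srf, of which the first 3 were called. A match is a string of letters and not a bound site, and these genes are a set in which the box is long known. The windows of the called genes are printed 5′ to 3′ on the strand of the gene, with the CArG box in capitals, to show where it lies. In Acta1 (chr8:123894726-123895025, minus strand) it starts 73 bases before the gene start, in Cnn2 (chr10:79988350-79988649, plus strand) 56 bases and in Vcl (chr14:20929148-20929447, plus strand) 227 bases before it.
Acta1: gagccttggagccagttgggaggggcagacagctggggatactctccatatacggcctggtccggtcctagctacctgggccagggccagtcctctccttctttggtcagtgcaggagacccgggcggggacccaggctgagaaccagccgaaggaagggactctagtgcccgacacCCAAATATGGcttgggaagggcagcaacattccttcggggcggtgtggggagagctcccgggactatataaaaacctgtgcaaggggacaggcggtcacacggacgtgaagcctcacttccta
Cnn2: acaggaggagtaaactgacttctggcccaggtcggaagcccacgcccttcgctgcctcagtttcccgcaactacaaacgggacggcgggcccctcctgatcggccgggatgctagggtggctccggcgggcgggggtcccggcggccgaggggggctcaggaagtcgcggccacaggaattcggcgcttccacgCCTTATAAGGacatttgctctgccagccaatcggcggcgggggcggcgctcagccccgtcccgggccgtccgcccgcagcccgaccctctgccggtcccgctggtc
Vcl: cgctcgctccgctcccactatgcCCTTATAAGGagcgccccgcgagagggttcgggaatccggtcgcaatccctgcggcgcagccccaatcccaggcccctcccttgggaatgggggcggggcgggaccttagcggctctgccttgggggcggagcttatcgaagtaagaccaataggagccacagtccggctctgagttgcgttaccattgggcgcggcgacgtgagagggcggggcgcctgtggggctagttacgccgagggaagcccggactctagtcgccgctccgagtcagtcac
Cnn2, a calponin, and Vcl, the vinculin of focal adhesions, were higher by 1.33 and 1.41. Myl9 and Srf had differences of 0.50 and 0.46, and neither passed the test.

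**Figure D4:**
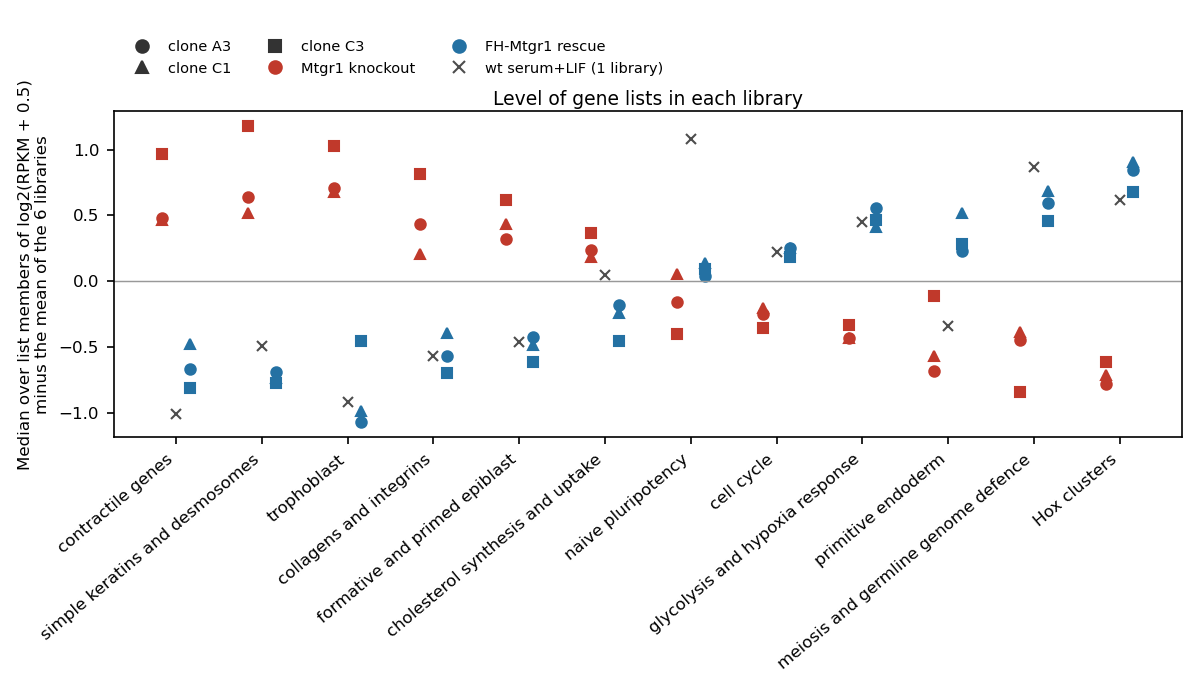
Level of 12 gene lists in each library, as the median over the members tested of log2(RPKM + 0.5) minus the mean of the 6 libraries. Red symbols are Mtgr1−/− clones, blue symbols FH-Mtgr1 rescue lines, shapes mark the clone and crosses the wt serum+LIF library, which lies above all others for naive pluripotency and among the red symbols for primitive endoderm.

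Imprinted genes, expressed from 1 parental allele only, were higher for 19 of 37 tested members, 15 of them at least 2-fold, and lower for 6. Peg10, a retrotransposon-derived gene of the placenta (chromosome 6, 4697306 to 4710514, plus strand, NCBIM37), was at 848, 753 and 775 RPKM in the knockout and at 65.0, 64.5 and 51.8 RPKM in the rescue lines (difference 3.71, SE 0.13, adjusted p = 1.2e-05). Magel2 of the Prader-Willi region was at 8.13, 6.53 and 8.10 RPKM against 0.218, 0.222 and 0.152 RPKM (difference 3.53, SE 0.16). The growth factor Igf2 was at 37.1, 23.8 and 56.0 RPKM against 3.32, 4.27 and 8.36 RPKM (difference 2.77, SE 0.37). These are maternally silenced, paternally expressed genes. H19, the maternally expressed neighbour of Igf2, was higher as well, at 1238, 1510 and 768 RPKM against 222, 268 and 555 RPKM (difference 1.81, SE 0.36), with clone C3 the lowest knockout and the highest rescue library, and the difference was 2.49 without that clone. Slc22a18 and Copg2 were lower by -1.57 (SE 0.18) and -1.13 (SE 0.19). RPKM does not tell the alleles apart.

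The DNA methylation genes were near the background, with 6 of 19 higher and 5 lower. The de novo methyltransferase Dnmt3b was at 250, 245 and 279 RPKM in the knockout against 116, 107 and 74.8 RPKM (difference 1.39, SE 0.17), and its cofactor Dnmt3l lay on the other side, at 53.8, 78.9 and 59.97 RPKM against 93.3, 88.0 and 102 RPKM (difference -0.57, SE 0.16, adjusted p = 0.0159). Tet2, a dioxygenase that removes methylation, was at 3.73, 4.04 and 1.77 RPKM against 6.29, 6.36 and 6.89 RPKM, while Tet3 was at 6.56, 6.05 and 8.94 RPKM against 2.91, 3.63 and 3.46 RPKM. Polycomb genes were near the background as well, with 6 of 27 higher and 8 lower (51.9% called, median 0.049). The 6 members that were higher were Jarid2, Rbbp7, Ring1, Cbx2, Kdm2b and Phc2, the last with the largest increase (difference 1.14). The methyltransferase Ezh1 was at 5.26, 5.39 and 3.94 RPKM against 23.1, 23.6 and 17.8 RPKM (difference -2.04, SE 0.17), and Suz12, a core subunit of PRC2, was at 41.8, 40.7 and 32.6 RPKM against 78.5, 95.2 and 109 RPKM (difference -1.28, SE 0.16). Only 6 Hox genes passed the filter, all of them lower. Hoxc13, a factor of the posterior body, was at 0.239, 0.318 and 0.580 RPKM against 3.46, 4.32 and 7.85 RPKM. At such levels the median of the list depends on the pseudocount, from -2.93 with 0.1 to -0.88 with 1, around -1.39 with 0.5.

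Genes of meiosis and of germline genome defence had the lowest median of the lists with at least 8 members, -1.15 (-1.11 without clone C3). Of 26 tested members 19 were lower, 14 at least 2-fold, and 1 was higher. Smc1b, the meiotic cohesin subunit (chromosome 15, 84895121 to 84962387, minus strand, NCBIM37), was at 0.504, 0.397 and 0.218 RPKM in the knockout and at 7.82, 7.87 and 6.65 RPKM in the rescue lines (difference -3.20, SE 0.18, adjusted p = 2.86e-05). Sycp3, a lateral element of the synaptonemal complex, was at 2.63, 2.37 and 1.10 RPKM against 17.1, 17.2 and 28.7 RPKM (difference -3.10, SE 0.30). Hormad1, which monitors chromosome synapsis, was at 0.809, 0.606 and 0.368 RPKM against 6.69, 6.22 and 8.23 RPKM (difference -2.80, SE 0.20). Clone C3 was the lowest knockout library for these genes. Slx4, a scaffold for nucleases that also acts in somatic repair, was the member that was higher, at 7.91, 7.35 and 8.19 RPKM against 4.35, 5.00 and 4.61 RPKM. The primordial germ cell list, which holds the earlier specifiers, had 5 of 19 higher and 4 lower, and 9 higher and 7 lower without clone C3, with a median that went from 0.16 to -0.16. In it the receptor Kit was at 2.94, 3.19 and 2.52 RPKM against 7.11, 8.58 and 4.96 RPKM (difference -1.10, SE 0.20) and the transcription factor Tfap2c at 27.7, 30.4 and 29.2 RPKM against 12.1, 13.8 and 18.1 RPKM (difference 0.98, SE 0.16). Of 11 transcripts of the two-cell-like state Dux alone was called, at 0.503, 0.765 and 0.0872 RPKM against 2.33, 1.33 and 0.815 RPKM. Without clone C3, 6 of the 11 were higher and 1 was lower, and the median went from 0.33 to 0.51.

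Genes of glycolysis and of the response to hypoxia were lower for 30 of 41 tested members, 16 of them at least 2-fold, and higher for 6 (median -0.81, and -0.82 without clone C3). Aldoc, the aldolase of brain, was at 6.24, 5.56 and 7.73 RPKM in the knockout and at 41.7, 34.7 and 39.7 RPKM in the rescue lines (difference -2.49, SE 0.15, adjusted p = 3.17e-05). Bnip3, a mitochondrial receptor for autophagy, was at 26.0, 21.7 and 22.2 RPKM against 152, 128 and 94.4 RPKM (difference -2.37, SE 0.18). P4ha1, the prolyl hydroxylase that collagen folding needs, was at 6.34, 6.53 and 6.79 RPKM against 31.7, 35.7 and 37.9 RPKM (difference -2.33, SE 0.12). The 3 genes did not overlap between the groups. The 6 members that were higher were Hk2, Eno3, Slc2a1, Slc16a3, Hif1a and Epas1. Epas1, which encodes HIF-2 alpha, a subunit of the hypoxia-inducible factors, was at 3.65, 4.61 and 4.29 RPKM against 1.68, 2.22 and 1.92 RPKM (difference 0.94, SE 0.16), the hexokinase Hk2 at 84.9, 89.5 and 80.2 RPKM against 51.1, 52.4 and 47.1 RPKM (difference 0.75, SE 0.11), and the lactate transporter Slc16a3 at 118, 119 and 184 RPKM against 90.4, 87.2 and 69.0 RPKM. The glucose transporter Slc2a3 overlapped between the groups, at 214, 181 and 350 RPKM against 324, 338 and 292 RPKM, with clone C3 the highest of all 6 libraries.

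Hypoxia-inducible factors bind the core ACGTG, which was searched on both strands (ACGTG or CACGT) in the same promoter windows and which is also contained in CACGTG, the E-box of other factors. It was present in 29 of 54 windows (53.7%) of the 37 matched genes of the list, against 25.7% of the windows of tested genes, 27.0% of those of genes called lower at least 2-fold, 24.3% of those of genes called higher at least 2-fold and 19.6% of all windows. The list was drawn up with known targets of these factors among its members. The windows of 3 members described above that hold the core are printed in the same way, with the core in capitals, to show its place: in Aldoc (chr11:78322823-78323122, plus strand) after the gene start, in Bnip3 (chr7:138909457-138909756, minus strand) as the overlap of both strands 108 bases before it and in P4ha1 (chr10:59323046-59323345, plus strand) 16 bases before it. Ndufa4l2 had no entry.
Aldoc: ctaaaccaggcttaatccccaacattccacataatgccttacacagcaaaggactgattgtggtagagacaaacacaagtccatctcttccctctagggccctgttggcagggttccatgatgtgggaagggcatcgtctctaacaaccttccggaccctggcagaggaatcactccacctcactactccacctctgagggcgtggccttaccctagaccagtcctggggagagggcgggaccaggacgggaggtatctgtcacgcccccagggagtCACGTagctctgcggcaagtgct
Bnip3: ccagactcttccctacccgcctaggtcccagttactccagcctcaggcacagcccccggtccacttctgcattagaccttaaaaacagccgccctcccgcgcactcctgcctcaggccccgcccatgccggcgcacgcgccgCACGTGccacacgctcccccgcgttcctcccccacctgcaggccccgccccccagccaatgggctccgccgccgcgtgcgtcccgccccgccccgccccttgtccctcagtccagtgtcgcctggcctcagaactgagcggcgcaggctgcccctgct
P4ha1: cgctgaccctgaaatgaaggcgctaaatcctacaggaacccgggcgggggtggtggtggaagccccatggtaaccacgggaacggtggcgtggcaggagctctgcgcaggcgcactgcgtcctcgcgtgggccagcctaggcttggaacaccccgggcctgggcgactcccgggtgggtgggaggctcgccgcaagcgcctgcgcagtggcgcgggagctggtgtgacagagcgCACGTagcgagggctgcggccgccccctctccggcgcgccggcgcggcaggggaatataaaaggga
The core of the motif known for Prdm14, GTCTCTA or TAGAGAC on the other strand, was present in 1.89% of the windows of genes called higher at least 2-fold, 2.73% of those of genes called lower at least 2-fold and 2.62% of those of all tested genes. The paper places Prdm14 binding mainly at distal elements, which windows at the gene start do not cover. These shares therefore do not tell whether the genes have Prdm14 sites.

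Lipid genes showed the opposite direction to glycolysis. Of 33 genes of cholesterol and fatty acid synthesis and uptake 20 were higher, 9 at least 2-fold, and 1 was lower, with a median of 0.58 that was 0.37 without clone C3. Fasn, the fatty acid synthase, was at 132, 126 and 181 RPKM in the knockout and at 38.4, 38.4 and 20.4 RPKM in the rescue lines (difference 2.19, SE 0.26). Insig1, which retains the SREBP factors in an inactive form, was the member that was lower, at 33.1, 31.1 and 41.0 RPKM against 68.2, 67.3 and 94.7 RPKM (difference -1.11, SE 0.17). The list also holds 2 genes that encode SREBP factors. Srebf1 was called higher (difference 0.71), whereas Srebf2 overlapped between the groups at 82.6, 79.6 and 120 RPKM against 95.7, 95.2 and 77.9 RPKM.

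Of the 9 neural genes that reached the filter 7 were higher and 1 was lower. Vgf, a secreted neuropeptide precursor, was at 15.2, 20.9 and 50.5 RPKM in the knockout against 0.625, 0.849 and 1.39 RPKM in the rescue lines (difference 4.18, SE 0.40). The neuronal tubulin Tubb3 was at 42.9, 52.0 and 70.0 RPKM against 8.12, 7.28 and 3.51 RPKM (difference 3.07, SE 0.30). Clone C3 was the highest knockout library for both. Of 8 mesoderm and endoderm genes 4 were higher and 3 lower. The homeobox gene Msx2 was at 4.37, 4.66 and 6.08 RPKM against 0.905, 0.785 and 0.908 RPKM (difference 2.01, SE 0.17), whereas Mesp2 of the presomitic mesoderm was at 0.526, 0.829 and 0.501 RPKM against 1.46, 1.75 and 3.003 RPKM (difference -1.17, SE 0.25).

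Signalling genes were more often called higher than lower in each of 4 pathways. For Nodal and BMP (50% called) and for LIF and Stat3 (40%), the share called was below the 53.4% of all genes. The medians of these lists were 0.21 and 0.12. Of 30 genes of FGF signalling and ERK feedback 17 were higher and 3 lower. Among the receptors, Fgfr2 was at 7.33, 7.02 and 9.35 RPKM in the knockout against 2.44, 3.05 and 4.28 RPKM (difference 1.18, SE 0.21), whereas Fgfr4 was at 0.262, 0.580 and 0.589 RPKM against 3.55, 3.45 and 3.62 RPKM (difference -2.07, SE 0.19). The ligand Fgf4, an autocrine signal of mESCs, was at 25.1, 32.0 and 19.6 RPKM against 69.6, 72.4 and 88.5 RPKM (difference -1.59, SE 0.19). Dusp14, a phosphatase for MAP kinases, was at 16.2, 14.6 and 29.1 RPKM against 2.21, 2.25 and 1.52 RPKM (difference 2.98, SE 0.26). The transcription factor Myc, a target of several pathways, was at 24.6, 28.5 and 33.8 RPKM against 3.50, 3.58 and 2.39 RPKM (difference 3.02, SE 0.18).

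Of 30 Wnt genes 14 were higher and 4 lower. The ligands Wnt7b and Wnt4 were at 12.5, 12.5 and 24.2 RPKM and at 7.94, 6.34 and 15.5 RPKM in the knockout. In the rescue lines they were at 1.26, 1.61 and 2.63 RPKM and at 1.46, 1.26 and 1.09 RPKM. The target gene Sp5 was at 3.44, 2.16 and 9.30 RPKM against 0.138, 0.247 and 0.150 RPKM (difference 2.79, SE 0.42). By contrast Tcf7, a nuclear effector, was at 23.5, 22.7 and 22.5 RPKM against 60.7, 66.0 and 55.8 RPKM (difference -1.39, SE 0.12), and Rnf43, which removes Wnt receptors, at 0.394, 0.385 and 0.635 RPKM against 1.85, 1.74 and 2.39 RPKM (difference -1.36, SE 0.19). Of 34 Nodal and BMP genes 14 were higher and 3 lower. Lefty2, a feedback inhibitor of Nodal, was at 31.8, 31.7 and 56.8 RPKM against 7.57, 5.75 and 3.70 RPKM (difference 2.71, SE 0.29). The BMP ligands diverged, Bmp8b at 8.61, 7.997 and 18.7 RPKM against 0.863, 1.17 and 0.855 RPKM, and Bmp7 at 1.07, 1.13 and 1.66 RPKM against 7.45, 6.54 and 7.64 RPKM (difference -2.12, SE 0.17). Of 25 genes of LIF and Stat3 signalling 9 were higher and 1, Tfcp2l1, was lower (difference -0.93, SE 0.23). Pim3, a Stat3 target, was at 63.9, 63.9 and 151 RPKM against 88.2, 83.6 and 82.8 RPKM, with clone C3 above and the other knockout clones below all rescue lines. Without clone C3 its difference was -0.42 (adjusted p = 0.00196).

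Cell cycle genes were lower for 19 of 37 members and higher for 6. The lower members included the mitotic genes Top2a (-1.253), Ccnb2 (-1.235), Bub1 (-1.215) and Aurka (-1.013). Of the Mcm genes of DNA replication, Mcm2 was higher and Mcm6 lower, while Mcm3, Mcm4, Mcm5 and Mcm7 were not called. Cyclin D1 (Ccnd1) and cyclin E1 (Ccne1), which drive entry into S phase, were among those that were higher, Ccnd1 at 58.7, 58.0 and 54.3 RPKM in the knockout against 17.1, 16.2 and 15.2 RPKM (difference 1.79, SE 0.11), and Ccne1 at 117, 133 and 116 RPKM against 54.5, 51.7 and 49.1 RPKM (difference 1.23, SE 0.11). The pocket protein Rbl2 (p130) and the inhibitor Cdkn2c (p18), which restrain that step, were lower, Rbl2 at 0.846, 0.955 and 0.394 RPKM against 4.004, 4.45 and 4.51 RPKM (difference -1.999, SE 0.21), and Cdkn2c at 0.219, 0.400 and 0.0798 RPKM against 2.29, 1.96 and 3.41 RPKM (difference -2.05, SE 0.24). Trp53, which encodes p53, was at 181, 210 and 192 RPKM against 73.3, 70.6 and 72.9 RPKM (difference 1.42, SE 0.11, adjusted p = 6.28e-05). It is itself a member of the list of p53 targets and death genes. Of its 23 members 10 were lower and 4, including Trp53, were higher. The share called in this list was 60.9%, against 53.4% over all genes. Among its lower members Trp53inp1 was at 33.3, 26.1 and 27.6 RPKM against 59.2, 68.8 and 104 RPKM (difference -1.37, SE 0.21), and Btg2 at 25.4, 23.2 and 25.9 RPKM against 58.6, 57.7 and 74.5 RPKM (difference -1.33, SE 0.14). Stress genes were near the background, with 8 of 24 higher and 7 lower. Ddit3 (CHOP), a factor of the unfolded protein response, was at 7.90, 7.43 and 8.11 RPKM against 50.4, 40.2 and 87.7 RPKM (difference -2.77, SE 0.25), and Txnip, an inhibitor of glucose uptake, at 18.6, 17.5 and 24.6 RPKM against 101, 110 and 129 RPKM (difference -2.47, SE 0.16). The chaperone Hsph1 lay on the other side, at 94.1, 93.4 and 67.2 RPKM against 18.6, 20.3 and 25.6 RPKM (difference 1.95, SE 0.18).

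Ribosomal protein and respiratory chain genes were lower in most of their members, and both lists consist of short genes. Of 69 tested cytosolic ribosomal protein genes 66 were lower and none higher (median -0.9964), and of 69 respiratory chain genes 40 were lower and 2 higher (median -0.44). Their median gene length was 710 and 679 bases, against 2790 over all genes tested, and across all genes the difference rose with gene length (Spearman rho 0.220). When each library was adjusted for gene length, which was added once the results were known, 44 ribosomal genes were lower and 2 higher with a median of -0.43, and for the respiratory chain 14 were lower and 17 higher with a median of 0.15. The direction of the respiratory chain list therefore turned with the adjustment. The wt library lay with the knockout for both lists. The ribosomal list summed to 75560 RPKM in wt cells, to 74640 to 86220 RPKM in the knockout and to 137100 to 166800 RPKM in the rescue lines. The respiratory chain list summed to 9717 RPKM in wt cells, to 9399 to 10790 RPKM in the knockout and to 12680 to 15200 RPKM in the rescue lines. Cox8a, a subunit of cytochrome oxidase, was at 295, 316 and 290 RPKM in the knockout against 806, 649 and 799 RPKM. Rpl22 was at 146, 148 and 105 RPKM against 332, 314 and 386 RPKM. Ribosomal protein genes have many processed copies, and reads that fall in such copies make their values uncertain. The medians of the contractile, trophoblast, keratin, meiosis and glycolysis lists were 1.25, 1.74, 1.35, -1.16 and -0.82 with the adjustment.

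The wt library, which has no replicate and received no test, lay on the side of the rescue lines more often than on that of the knockout. Among all called genes whose groups did not overlap, it was on the rescue side for 47.5% of those higher in the knockout and 63.4% of those lower, and on the knockout side for 14.0% and 10.6%. Of the 1292 genes called higher at least 2-fold whose groups did not overlap, it was at or beyond the rescue range on the rescue side in 701 (54.3%), between the groups in 556 (43.0%) and on the knockout side in 35 (2.71%). Of the 1314 genes called lower, the numbers were 778 (59.2%), 468 (35.6%) and 68 (5.18%). Zfp143, a transcription factor in the general pluripotency list, was at 10.2, 10.7 and 8.61 RPKM in the knockout and at 28.0, 25.0 and 32.2 RPKM in the rescue lines. In wt cells it was at 28.2 RPKM. H19 was at 43.7 RPKM in wt cells, below the knockout and the rescue lines, and Esrrb, a naive factor at 12.1, 14.9 and 15.7 RPKM in the knockout and at 32.6, 30.1 and 37.1 RPKM in the rescue lines, reached 92.2 RPKM in wt cells.

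The difference between knockout and rescue was not the same for Mtgr1 as for Prdm14 in 4428 genes (35.3%), by the interaction of both comparisons in a fit of 10 libraries that share no sample between them. Prdm14 itself was at 116 and 79.8 RPKM in the FH-Prdm14 lines against 2.77 RPKM in the wt library. The interaction thus mixes loss of Prdm14 with its excess in the rescue lines, which cannot be told apart here. Without either FH-Prdm14 library the count was 2762 or 2878. Genes of glycolysis and hypoxia were among those that differed, with 30 of 41 members. So were 57 of 69 ribosomal, 10 of 11 two-cell-like, 18 of 25 formative epiblast and 24 of 37 cell cycle genes. The interaction was not fitted with the gene-length adjustment, which made the ribosomal difference in the Mtgr1 lines smaller. Most two-cell-like members were low in the Mtgr1 lines, such as Zscan4a at no more than 2.06 RPKM. P4ha1, lower in the Mtgr1 knockout, was at 16.6 and 17.8 RPKM in Prdm14−/− cells against 9.30 and 9.73 RPKM in FH-Prdm14 cells, an interaction of -3.15 (SE 0.18, adjusted p = 1.09e-05). Aldoc was at 25.4 and 22.8 RPKM against 33.2 and 33.9 RPKM, an interaction of -2.02 (SE 0.21). Otx2 was at 34.2 and 57.1 RPKM against 15.5 and 15.4 RPKM, a direction opposite to that in the Mtgr1 lines. Its interaction was -2.88 (SE 0.32, adjusted p = 0.000141). Whether loss or excess of Prdm14 moved Otx2 was not tested. Of the 30 contractile genes 12 differed by this test, of 17 keratin and desmosome genes 8 and of 20 trophoblast genes 14. Krt8 had an interaction of -0.48 (SE 0.33, adjusted p = 0.28) and Acta1 of -1.03 (SE 0.53, adjusted p = 0.15), which this test does not resolve from 0, whereas Hand1 had 2.34 (adjusted p = 0.016) and Plac1 2.83 (adjusted p = 0.0079).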

How the data were processed

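RNA was taken after 5 days in serum+LIF, and poly(A) RNA was sequenced single-end on Illumina instruments of more than 1 kind. Which library ran on which is not given in the sources used here. The authors aligned reads with Tophat to mm9, counted them over RefSeq genes with HTSeq and deposited RPKM values with the gene length. The deposited RPKM values were used as they stand, as log2(RPKM + 0.5), for 12549 genes that reached 1 RPKM in 2 or more of 6 libraries. Whole reads were recovered from the RPKM steps and gave the depths. limma 3.58.1 (R 4.3.3) with a mean-variance trend tested knockout against rescue without a block, and the interaction over 10 libraries. Rescue lines were derived from the same-named clones. Same-clone deviations correlated by 0.0691 (A3), -0.200 (C1) and 0.0305 (C3). P-values measure the spread between these clones. Named genes were Mtgr1 family members and Prdm14, the 10 largest differences per direction called with and without C3, up to 3 called and the highest uncalled member per list, study markers, and genes set by C3 or the interaction. A few further genes were named after their values were seen. The members and lists were chosen with earlier results of these data known. Promoters came from RefSeq (GRCm38.p6), gene positions from GENCODE vM1 (NCBIM37). The test was tested on simulated data. Some genes that the rule named are not reported here.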

Additional observations from a re-analysis of the deposited data

Results flagged for a closer look

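The difference between knockout and rescue was not the same for Mtgr1 and Prdm14 in 4428 genes by limma's interaction test, and the 3 genes with the largest interaction in each direction are given here. The FH-Prdm14 lines held far more Prdm14 RNA than wt cells, so these values do not tell loss of Prdm14 from its excess. Gm8994 had an interaction of 5.67 (SE 1.00, adjusted p = 0.00184), from 10.3 and 8.12 RPKM in Prdm14−/− against 237 and 126 RPKM in FH-Prdm14 cells, while it was at 9.68, 13.2 and 1.46 RPKM in Mtgr1−/− against 3.09, 2.19 and 0.749 RPKM in FH-Mtgr1 cells and was not called there. Tubb3, the neuronal tubulin, had 4.89 (SE 0.42, adjusted p = 4.16e-05), higher in Mtgr1−/− cells and lower in Prdm14−/− cells, where it was at 15.6 and 15.7 RPKM against 57.1 and 55.5 RPKM. Foxd3, a transcription factor of the epiblast and neural crest, had 4.30 (SE 0.41, adjusted p = 7.35e-05), at 6.83 and 10.3 RPKM against 38.0 and 37.2 RPKM in the Prdm14 lines and at 12.2, 17.1 and 27.6 RPKM against 4.06, 3.67 and 2.85 RPKM in the Mtgr1 lines.

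Car4, a carbonic anhydrase, had -4.79 (SE 0.25, adjusted p = 1.09e-05), at 210 and 156 RPKM in Prdm14−/− against 7.60 and 5.00 RPKM in FH-Prdm14 cells but at 53.7, 54.7 and 62.7 RPKM against 59.6, 58.1 and 56.7 RPKM in the Mtgr1 lines. Syce3 had -4.42 (SE 0.33, adjusted p = 2.82e-05), at 9.36 and 15.8 RPKM against 5.21 and 6.38 RPKM in the Prdm14 lines. 2610528J11Rik had -4.31 (SE 0.32, adjusted p = 2.82e-05), at 31.7 and 49.6 RPKM against 4.34 and 5.67 RPKM in the Prdm14 lines.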

How the results depend on the processing

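Leaving out 1 library or clone at a time gave 4217 to 8338 called genes, 2212 to 4212 higher, 1990 to 4126 lower, and 2762 to 5784 for the interaction with Prdm14. The other settings gave 6420 to 7770 called genes. The fit with the clone as replicate block called 6420 genes, 6175 of them shared with the fit without it. Under this block Tbl1xr1 (adjusted p = 0.0526), Atp5g3 (0.0609) and Rpph1 (0.051) lost their call and Cldn4 (0.0125), Itgb1 (0.012), Rhox13 (0.039) and Gm8994 (0.00861) gained one, and no other named gene changed its call. Genes called at least 2-fold numbered 2073 with a pseudocount of 1, 3076 with 0.1 and 3108 with voom. Of the 177 called named genes, none changed direction in 3181 refits and 81 refits lost the call. Many of these genes were named for a large called difference without overlap, and the refits share libraries. Their stability was therefore in part fixed by the choice of genes. Pim3 (-0.42), Srebf2 (-0.23), Pkdcc (-0.47) and Mir6516 (0.98), not called with all clones, had the other sign without clone C3, and Pim3 also without the C3 knockout library alone (-0.41). Over the left-out libraries and clones they ran from -0.42 to 0.24, -0.23 to 0.202, -0.47 to 0.58 and -1.895 to 0.98.

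Medians of lists over these left-out libraries ran from 0.24 to 0.46 for ETO proteins, -0.0749 to 0.12 for Polycomb, -0.92 to -0.68 for blood, -0.52 to -0.38 for the cell cycle, 0.49 to 0.63 for junctions, 0.75 to 1.12 for formative epiblast, -0.24 to -0.0737 for general pluripotency, 0.35 to 0.56 for imprinted genes, 0.79 to 1.20 for neural onset, -0.19 to 0.32 for primordial germ cells, 1.48 to 1.83 for trophoblast and 0.11 to 0.65 for the two-cell-like state. With the gene-length adjustment, chosen after seeing the data, medians were -0.053 for general pluripotency, 1.12 for formative epiblast, -0.0335 for Polycomb, 0.28 for ETO proteins, 0.51 for junctions, 0.58 for imprinted genes, 0.15 for the respiratory chain, -0.56 for the cell cycle, -0.43 for the ribosome and -0.71 for blood. With the GC adjustment they were 0.78 for formative epiblast, 1.85 for trophoblast, -0.0499 for primordial germ cells and -0.40 for the cell cycle. With voom they were 1.28 for neural onset, -4.24 for Hox, -0.46 for the cell cycle and -1.03 for blood. With a pseudocount of 0.1 they were 0.46 for imprinted genes, -2.93 for Hox and -0.47 for the cell cycle, and with 1 they were 0.42 for imprinted genes and -0.88 for Hox. Median-of-ratios scaling gave 0.46 for imprinted genes. The causes were not tested. The 3 clones of single-cell origin, 1 wt library and unequal depth limit these values.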
